A study of Mus musculus with 10 samples.

Results

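The 37 genes of the mouse mitochondrial genome were examined in RNA-seq libraries of 2 cultured melanoma lines, 5 libraries each. WT31 is a melanoma line from mice that carry an NrasQ61K transgene under the tyrosinase (Tyr) promoter and lack INK4a (Tyr::NrasQ61K/°; INK4a-/-). WT31_P5IV is a subline of it, obtained by passing the cells over the liver 5 times after intravenous injection, so both lines share that genotype and were grown in the same medium with fetal calf serum and penicillin/streptomycin, without a drug treatment. Between injections the cells from liver metastases were cultured and expanded, so the passage over the liver and this added culture cannot be told apart. The members were chosen by name, as every gene on chromosome M with a symbol that starts with mt-, 37 of the 55385 genes in the deposited tables, and the group was proposed with the fold changes of its protein-coding genes in the comparison of these lines already known. Values of these genes in that comparison are therefore a description, with no p printed and nothing concluded from the number called. Each line is a single line, and the 5 libraries of a line are labelled biological replicates without further detail, so the spread between them may be partly technical. Because the members make up a share of all RNA in a bulk sample, more mitochondrial RNA per cell and less RNA from the nuclear genes cannot be told apart.

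The mitochondrial genome is a small circle that is transcribed from both strands into long precursors. The tRNAs lie between most of the other genes, and their excision releases the 2 rRNAs of the mitochondrial ribosome (mt-Rnr1 and mt-Rnr2) and the mRNAs. The 13 mRNAs encode core subunits of the respiratory chain, which are 7 of complex I (NADH dehydrogenase), 1 of complex III (cytochrome b), 3 of complex IV (cytochrome c oxidase) and 2 of complex V (ATP synthase). All other subunits, and all proteins that copy, transcribe, process and translate the mitochondrial genome, come from nuclear genes. Of the 37 genes, 28 lie on the plus strand of the annotation (12 mRNAs, both rRNAs and 14 tRNAs) and 9 on the minus strand (mt-Nd6 and 8 tRNAs).

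Several of these genes abut or overlap, and the sequences of the longer overlaps between mRNA genes are shown first. Of the overlaps, only that of mt-Atp8 and mt-Atp6 is long enough to hold words of 31 bases, the default word length of kallisto, and 7.5% and 2.0% of the words of these genes lie in both. All sequences are from GENCODE M21 on GRCm38 and read 5′ to 3′ on the strand of the gene. The last 43 bases of mt-Atp8 are the first 43 of mt-Atp6 and are in capitals below, at chrM:7910-7969 and chrM:7927-7986, both on the plus strand.
mt-Atp8 end: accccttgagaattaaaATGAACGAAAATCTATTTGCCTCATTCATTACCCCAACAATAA
mt-Atp6 start: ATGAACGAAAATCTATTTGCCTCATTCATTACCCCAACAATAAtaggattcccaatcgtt

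A like overlap of 7 bases, in capitals, joins mt-Nd4l and mt-Nd4 at chrM:10144-10173 and chrM:10167-10196 on the plus strand.
mt-Nd4l end: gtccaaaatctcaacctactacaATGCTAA
mt-Nd4 start: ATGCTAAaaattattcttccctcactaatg

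The ends of mt-Nd5 (plus strand, chrM:13536-13565) and mt-Nd6 (minus strand, chrM:13552-13581) run into each other over 14 bases, which are in capitals and are the reverse complement of one another.
mt-Nd5 end: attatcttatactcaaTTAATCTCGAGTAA
mt-Nd6 end: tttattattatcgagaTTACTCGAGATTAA

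In 3 of the 13 mRNAs the annotated transcript stops 1 base past its last whole codon, and that T, in capitals below, becomes a stop codon only with the poly(A) tail. These ends lie on the plus strand at chrM:9361-9390 for mt-Co3, chrM:11515-11544 for mt-Nd4 and chrM:15259-15288 for mt-Cytb.
mt-Co3 end: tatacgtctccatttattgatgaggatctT
mt-Nd4 end: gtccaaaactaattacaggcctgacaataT
mt-Cytb end: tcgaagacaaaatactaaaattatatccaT

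The libraries held 24825671 to 25750639 estimated counts in WT31 and 24255389 to 25547694 in WT31_P5IV, and the totals did not differ beyond their spread (exact two-sided permutation test, p = 0.23). Across the transcriptome 13620 genes passed the filter on low counts, and 68.5% of them differed between the lines (edgeR quasi-likelihood test, Benjamini-Hochberg adjusted p under 0.05), 34.6% higher and 33.9% lower in WT31_P5IV. Summed melanocyte markers (Mlana, Dct, Tyr, Tyrp1, Pmel, Mitf and Sox10) stood at 17027 to 18422 counts per 1000000 (CPM) in WT31 and 22203 to 25700 in WT31_P5IV. Within this list Pmel (log2 fold change 1.22), Dct (0.80) and Tyr (0.25) were called higher, Tyrp1 (-0.96) and Sox10 (-0.14) lower, and Mlana and Mitf were not called. Sums over the markers of hepatocytes (0.302 to 0.587 against 0.442 to 1.30 CPM), macrophages and leukocytes (4.84 to 6.67 against 4.22 to 6.23), endothelium (0.119 to 0.416 against 0.121 to 0.379) and stellate cells and fibroblasts (0.593 to 1.40 against 0.660 to 1.07) were low, with Serpina1a, Cdh5 and Lyve1 at 0 counts in all 10 libraries. Of the macrophage and leukocyte markers, Lyz2 fell (4.33 ± 0.530 to 1.08 ± 0.155 CPM) and Cd68 rose (1.37 ± 0.454 to 3.73 ± 0.637 CPM), while Ptprc, Adgre1 and Csf1r held at most 5 counts in any library.

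WT31_P5IV carried a larger share of mitochondrial transcripts. The 37 genes took 6.20%, 7.18%, 6.59%, 6.63% and 6.61% of all estimated counts in WT31 replicates 1 to 5, and 12.5%, 12.9%, 11.4%, 12.1% and 10.8% in those of WT31_P5IV. Every WT31_P5IV library lay above every WT31 library. The means were 6.64% ± 0.347 and 11.9% ± 0.868 (SD, n = 5 each), a ratio of 1.80. Nearly all of this was mRNA, which alone took 6.53% ± 0.339 in WT31 and 11.8% ± 0.863 in WT31_P5IV. On TPM, the number of transcripts of a gene in 1000000 after correction for length, the share was 14.8% ± 0.912 in WT31 as compared to 24.5% ± 1.48 in WT31_P5IV, a ratio of 1.66.

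**Figure D1:**
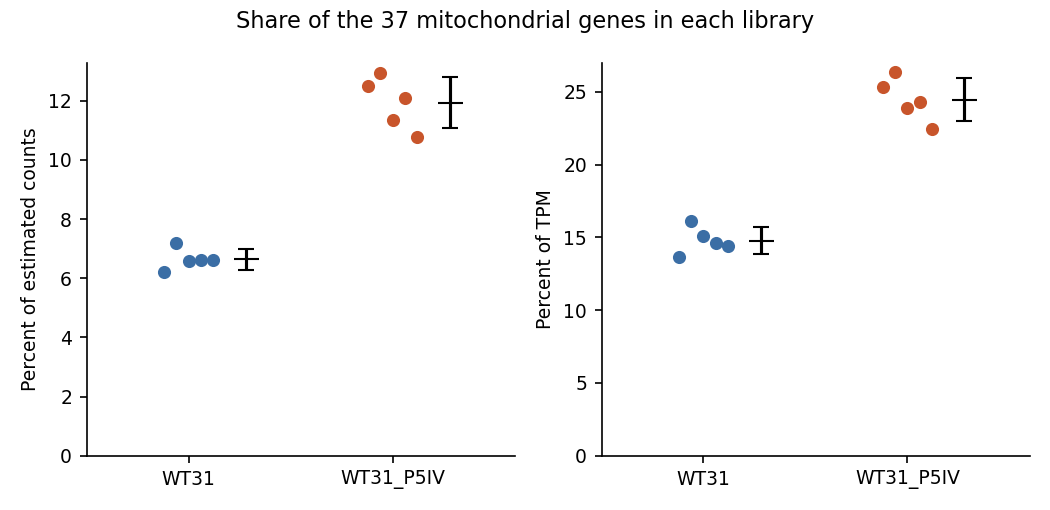
Percent of all estimated counts (left) and of TPM (right) that fell to the 37 mitochondrial genes, 1 point per library, with the mean and SD of each line beside the points. On counts the WT31 libraries span 6.20% to 7.18% and the WT31_P5IV libraries 10.8% to 12.9%, with no overlap.

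Of the 37 genes, 21 passed the filter: all 13 mRNAs, both rRNAs and 6 of the 22 tRNAs. Of these 21, 20 were called higher in WT31_P5IV and 0 lower, where 34.6% of all genes tested were called higher. In 19 of the 21 the CPM of all WT31_P5IV libraries lay above those of all WT31 libraries, which held for 26.6% of all genes tested. The contrast had chosen the group, so nothing is read from these counts. CPM values here were scaled by TMM (trimmed mean of M-values), and fold changes are log2 values of WT31_P5IV against WT31 on that scale.

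The mRNAs ranked alike in both lines. By mean TPM, mt-Atp6 (22562 ± 740 TPM in WT31 and 38224 ± 1742 in WT31_P5IV) stood highest among the 13, followed by mt-Co2 (18795 ± 1177 and 31721 ± 2309), mt-Co1 (15343 ± 1629 and 26784 ± 1988) and mt-Co3 (14210 ± 446 and 24390 ± 1255). The lowest were mt-Nd3 (5069 ± 83.8 and 7370 ± 415) and mt-Nd5 (4393 ± 491 and 6559 ± 630). The order of all 13 mean levels was the same in WT31 and in WT31_P5IV. Many neighbours in it overlapped in range, however, and only mt-Atp6 over mt-Co2 and mt-Nd6 over mt-Nd3 were apart from the next mRNA in both lines. The step from mt-Nd1 to mt-Cytb was free of overlap in WT31 alone (mt-Nd1 12251 to 14552 TPM, mt-Cytb 8598 to 10499). In WT31_P5IV these ranges met (mt-Nd1 18358 to 22059 TPM, mt-Cytb 16828 to 19926), and the free step lay instead between mt-Cytb and mt-Nd2 (10898 to 13545 TPM).

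**Figure D2:**
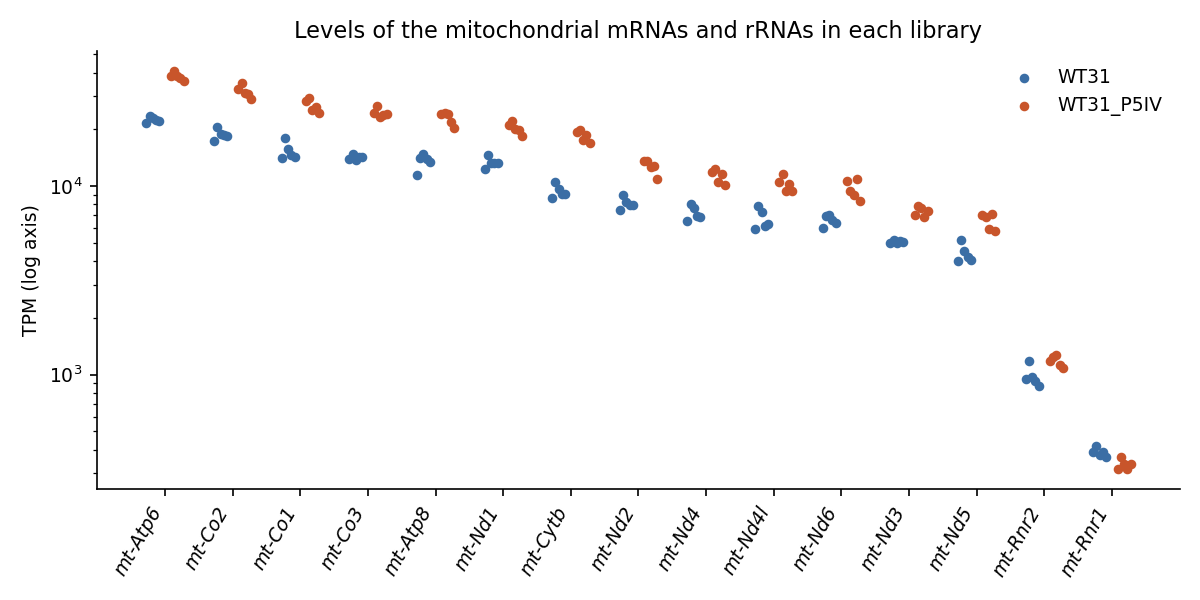
TPM (log axis) of the 13 mitochondrial mRNAs and 2 rRNAs, ordered by mean level in WT31, with 1 point per library and the lines in 2 colours. The WT31_P5IV points lie above the WT31 points for all 13 mRNAs, and the points of both lines meet only at mt-Rnr2, where WT31 spans 875 to 1186 TPM and WT31_P5IV 1085 to 1271.

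The complex III gene mt-Cytb, which encodes the cytochrome b that carries electrons within the bc1 complex, had the highest fold change of the 13 mRNAs. Its level was 5467, 6444, 5930, 5933 and 6008 CPM in WT31 replicates 1 to 5 and 13894, 14681, 12500, 13584 and 11765 CPM in those of WT31_P5IV. All WT31_P5IV libraries were far above all WT31 libraries, and replicate 2 was the highest in each line. The log2 fold change was 1.16 (SE 0.06). Within the mitochondrial mRNA, mt-Cytb made up 9.24% to 9.42% of the counts in WT31 and 10.9% to 11.2% in WT31_P5IV, also without overlap.

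The 7 complex I genes had the 7 lowest fold changes of the 13 mRNAs. mt-Nd1, a membrane subunit near the quinone site, was at 6258, 7172, 6586, 6958 and 7045 CPM in WT31 and at 12250, 13055, 11549, 11650 and 10309 CPM in WT31_P5IV (log2 fold change 0.79, SE 0.06). mt-Nd3, a small membrane subunit, was at 541.9, 538.3, 504.5, 567.1 and 570.1 CPM in WT31 and at 892.9, 982.3, 942.6, 869.6 and 880.5 CPM in WT31_P5IV (log2 fold change 0.75, SE 0.04). In both genes the lines were apart by more than the spread within either. All WT31_P5IV libraries also lay above all WT31 libraries for mt-Nd4l (log2 fold change 0.83, SE 0.08) and for the proton-pumping subunits. These were mt-Nd2 (0.83, SE 0.07), mt-Nd4 (0.83, SE 0.07) and mt-Nd5 (0.76, SE 0.08).

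The remaining complex I gene, mt-Nd6, is the single mRNA of the minus strand. It was at 1309, 1456, 1459, 1468 and 1447 CPM in WT31 and at 2688, 2392, 2206, 2733 and 2000 CPM in WT31_P5IV. The WT31_P5IV libraries were all higher and varied more, with replicates 1 and 4 at the top and replicate 5 at the bottom. The log2 fold change of 0.75 (SE 0.07) was close to that of its plus-strand neighbour mt-Nd5, whose end it overlaps as shown above. The ratio of mt-Nd6 to mt-Nd5 TPM was 1.51 ± 0.0978 in WT31 and 1.47 ± 0.0648 in WT31_P5IV (SD, n = 5 each), a difference within the spread of the libraries. Whether strand was taken into account in the counts is not given in the sources used here. Without strand, reads of mt-Nd6 and of the plus-strand precursor that crosses it cannot be told apart.

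The 3 complex IV genes, which encode the catalytic core of cytochrome c oxidase, had log2 fold changes between those of complex I and mt-Cytb. mt-Co1, the subunit with the heme and copper centre that reduces oxygen, was at 12744, 15737, 13850, 13511 and 13341 CPM in WT31 and at 28953, 30689, 25725, 27203 and 24353 CPM in WT31_P5IV (log2 fold change 0.98, SE 0.07). mt-Co2, which takes electrons from cytochrome c, went from 6146 ± 318 to 11822 ± 1077 CPM (log2 fold change 0.94, SE 0.06). mt-Co3 went from 5601 ± 241 to 10924 ± 721 CPM (log2 fold change 0.96, SE 0.05). In none of the 3 did a WT31 library reach a WT31_P5IV library.

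The complex V genes mt-Atp6, a subunit of the proton channel, and mt-Atp8, a small subunit beside it, are read from a shared mRNA. mt-Atp6 was at 7063, 7427, 7176, 7505 and 7502 CPM in WT31 and at 14353, 15462, 13964, 14020 and 12966 CPM in WT31_P5IV (log2 fold change 0.95, SE 0.05). mt-Atp8 was at 389.1, 461.6, 467.7, 483.9 and 472.7 CPM in WT31 and at 1004, 967.3, 939.1, 881.1 and 755.6 CPM in WT31_P5IV (log2 fold change 1.00, SE 0.07). Both genes were higher in every WT31_P5IV library, and WT31 replicate 1 was the lowest library for each. The ratio of mt-Atp8 to mt-Atp6 TPM was 0.601 ± 0.0435 in WT31 and 0.602 ± 0.0306 in WT31_P5IV, and that of the other shared mRNA, mt-Nd4l to mt-Nd4, was 0.928 ± 0.0398 and 0.906 ± 0.0267.

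The makeup of the mitochondrial mRNA differed slightly between the lines. Complex I genes held 38.2% ± 0.342 of its counts in WT31 and 35.03% ± 0.727 in WT31_P5IV, and the libraries of the lines did not overlap (37.7% to 38.7% against 34.1% to 36.0%). Complex IV genes held 40.2% ± 0.418 and 41.5% ± 0.605, with ranges that overlapped slightly (39.8% to 40.8% and 40.7% to 42.2%). On TPM the complex IV ranges lay just apart (32.49% to 33.79% in WT31 and 33.93% to 35.03% in WT31_P5IV). Complex V genes held 12.3% ± 0.449 and 12.5% ± 0.364, a difference within the spread. The lowest fold change outside complex I stayed above the highest within it in each of the 21 other processing settings tried. That lowest gene was mt-Co2 in the main setting, but mt-Atp6 in some others, as without WT31 replicate 2 (0.95, with mt-Co2 at 0.96). mt-Cytb was the highest mRNA in each of the 21. Scaling moves all genes of a library alike, so a setting that changes only the scaling or filter could hardly alter this order.

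The libraries of a line also differed among themselves in a shared manner. In WT31, replicate 1 was the lowest library for 11 of the 13 mRNAs and replicate 2 the highest for 8. In WT31_P5IV, replicate 5 was the lowest for 11 and replicate 2 the highest for 10. The mean log2 CPM over the 13 genes spanned 11.52 to 11.72 in WT31 and 12.34 to 12.65 in WT31_P5IV, so that the gap between the lines was wider than either span.

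The fold changes of the rRNAs were below those of all 13 mRNAs. mt-Rnr1, the RNA of the small ribosomal subunit, was at 198.8, 205.7, 184.9, 203.2 and 194.3 CPM in WT31 and at 183.9, 217.2, 191.6, 184.0 and 187.4 CPM in WT31_P5IV. The lines overlapped, and the log2 fold change was -0.03 (SE 0.05). On TPM mt-Rnr1 was lower in WT31_P5IV, at 334 ± 20.95 as compared to 388 ± 19.5 TPM, with the highest WT31_P5IV library (367.9 TPM) just under the lowest WT31 library (368.2 TPM). mt-Rnr2, the RNA of the large subunit, was at 879.2, 1064, 875.8, 876.6 and 842.3 CPM in WT31 and at 1237, 1332, 1321, 1192 and 1108 CPM in WT31_P5IV. Here the lines did not overlap on CPM, and the log2 fold change was 0.45 (SE 0.07). The ratio of mt-Rnr2 to mt-Rnr1 TPM was 2.52 ± 0.197 in WT31 (2.37 to 2.83) and 3.53 ± 0.229 in WT31_P5IV (3.24 to 3.79), without overlap.

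Per length, on TPM, both rRNAs stood below all 13 mRNAs in level. They made up 0.932% ± 0.0580 of the summed TPM of mitochondrial rRNA and mRNA in WT31 and 0.626% ± 0.0339 in WT31_P5IV. How the RNA was selected for the libraries is not given in the sources used here, so these levels are those of the sequenced libraries, not of the cells.

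**Figure D3:**
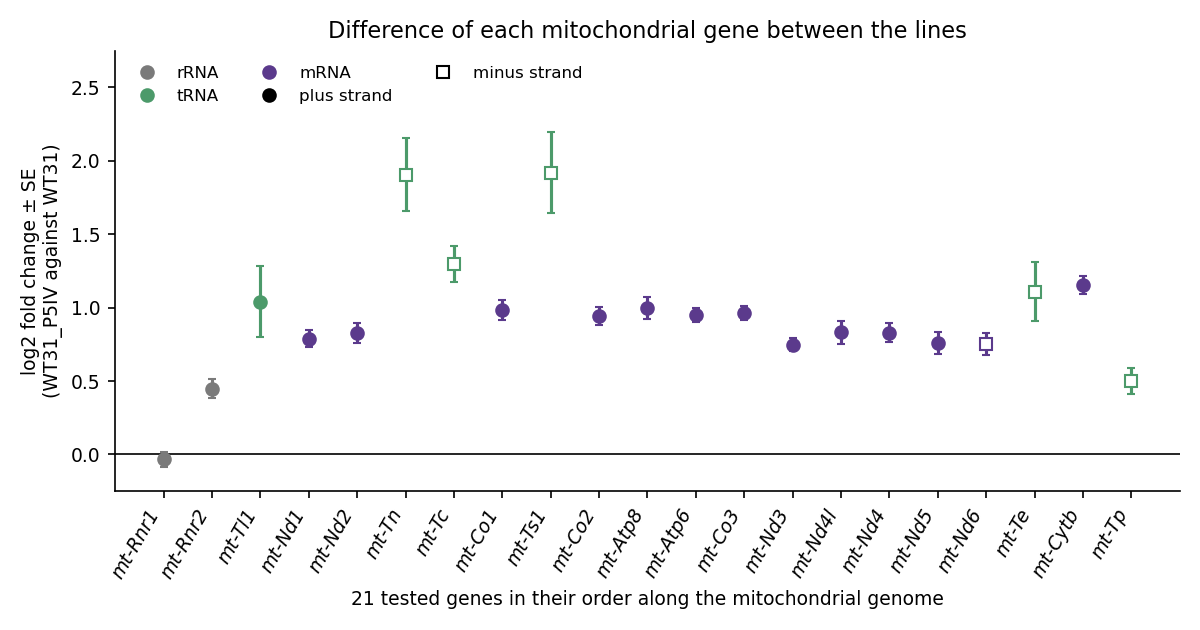
Log2 fold change of WT31_P5IV against WT31 with its SE for the 21 tested genes, in their order along the mitochondrial genome. Colour gives the class and filled circles or open squares the strand, and the points run from -0.03 for mt-Rnr1 over 0.75 to 1.16 for the mRNAs to 1.92 for the tRNA gene mt-Ts1.

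Of the 22 tRNA genes, 12 held at most 3 counts in each of the 10 libraries, all 12 on the plus strand. Of these, mt-Tv, mt-Ti and mt-Td had 0 counts in all libraries, where 3 counts correspond to 0.113 to 0.129 CPM on the TMM scale. Only 8 tRNA genes held more than 3 counts in all libraries of a line, and 7 of these lie on the minus strand. Their sequences are shown here, from GENCODE M21 on GRCm38 and 5′ to 3′ on the strand of the gene, because their counts carry the contrast between the strands. The capitals in mt-Ts1 mark the 3 bases that it shares, on the opposite strand, with the end of mt-Co1, and the last 2 lines are plus-strand tRNAs at 0 counts.
mt-Tl1 (leucine, chrM:2676-2750, plus strand): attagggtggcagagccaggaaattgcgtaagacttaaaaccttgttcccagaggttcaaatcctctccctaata
mt-Ta (alanine, chrM:5018-5086, minus strand): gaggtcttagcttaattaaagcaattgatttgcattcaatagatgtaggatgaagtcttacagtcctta
mt-Tn (asparagine, chrM:5089-5159, minus strand): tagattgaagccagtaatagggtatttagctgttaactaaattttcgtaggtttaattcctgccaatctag
mt-Tc (cysteine, chrM:5192-5257, minus strand): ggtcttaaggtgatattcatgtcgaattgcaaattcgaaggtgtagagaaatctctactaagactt
mt-Ty (tyrosine, chrM:5260-5326, minus strand): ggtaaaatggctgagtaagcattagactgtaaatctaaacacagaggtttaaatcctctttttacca
mt-Ts1 (serine, chrM:6870-6938, minus strand): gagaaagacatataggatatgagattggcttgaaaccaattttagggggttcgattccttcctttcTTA
mt-Te (glutamate, chrM:14071-14139, minus strand): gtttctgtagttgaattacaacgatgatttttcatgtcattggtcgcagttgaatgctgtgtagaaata
mt-Tp (proline, chrM:15356-15422, minus strand): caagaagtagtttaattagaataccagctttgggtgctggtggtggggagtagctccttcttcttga
mt-Tv (valine, chrM:1025-1093, plus strand): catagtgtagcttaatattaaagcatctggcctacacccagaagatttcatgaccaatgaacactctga
mt-Td (aspartate, chrM:6942-7011, plus strand): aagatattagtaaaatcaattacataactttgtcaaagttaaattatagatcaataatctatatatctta

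Minus-strand tRNA genes dominated in both lines. The 8 of them together ranged from 573 to 812 counts among the WT31 libraries and from 1160 to 1850 among those of WT31_P5IV, whereas the 14 of the plus strand held 19 to 39 and 33 to 70. The minus strand thus gave 95.9% ± 1.12 of the tRNA counts in WT31 and 96.4% ± 0.613 in WT31_P5IV. Whether strand was taken into account in the counts is not given in the sources used here, and without strand reads of a tRNA and of the precursor that crosses it on the other strand cannot be told apart.

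The fold changes of the tRNA genes spread more widely than those of the mRNAs. mt-Ts1 held 75, 63, 67, 168 and 150 counts in WT31 and 496, 281, 241, 473 and 360 in WT31_P5IV (log2 fold change 1.92, SE 0.27). mt-Tn held 26, 27, 14, 25 and 21 counts in WT31 and 104, 105, 46, 65 and 75 in WT31_P5IV (log2 fold change 1.91, SE 0.25). Neither gene overlapped between the lines, although replicates within a line differed considerably, as in mt-Ts1, where WT31 replicates 4 and 5 were well above the other 3. mt-Tc held 117, 155, 120, 109 and 88 counts in WT31 and 296, 263, 311, 265 and 217 in WT31_P5IV (log2 fold change 1.30, SE 0.12).

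mt-Te, which adjoins mt-Nd6 on the same strand, held 211, 243, 178, 272 and 271 counts in WT31 and 653, 412, 316, 634 and 351 in WT31_P5IV (log2 fold change 1.11, SE 0.20). Its WT31_P5IV libraries fell into a higher pair, replicates 1 and 4, and 3 lower ones, and replicates 1 and 4 were also the highest for mt-Nd6. mt-Tp, the last gene of the minus strand before the control region, held 164, 168, 190, 224 and 186 counts in WT31 and 268, 237, 236, 240 and 252 in WT31_P5IV (log2 fold change 0.50, SE 0.09). It thus had the lowest fold change of the 6 tested tRNAs, and its lines did not overlap. The plus-strand mt-Tl1, which lies directly between mt-Rnr2 and mt-Nd1, held 24, 30, 19, 17 and 26 counts in WT31 and 64, 39, 38, 55 and 27 in WT31_P5IV (log2 fold change 1.04, SE 0.24), and its lines overlapped.

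**Figure D4:**
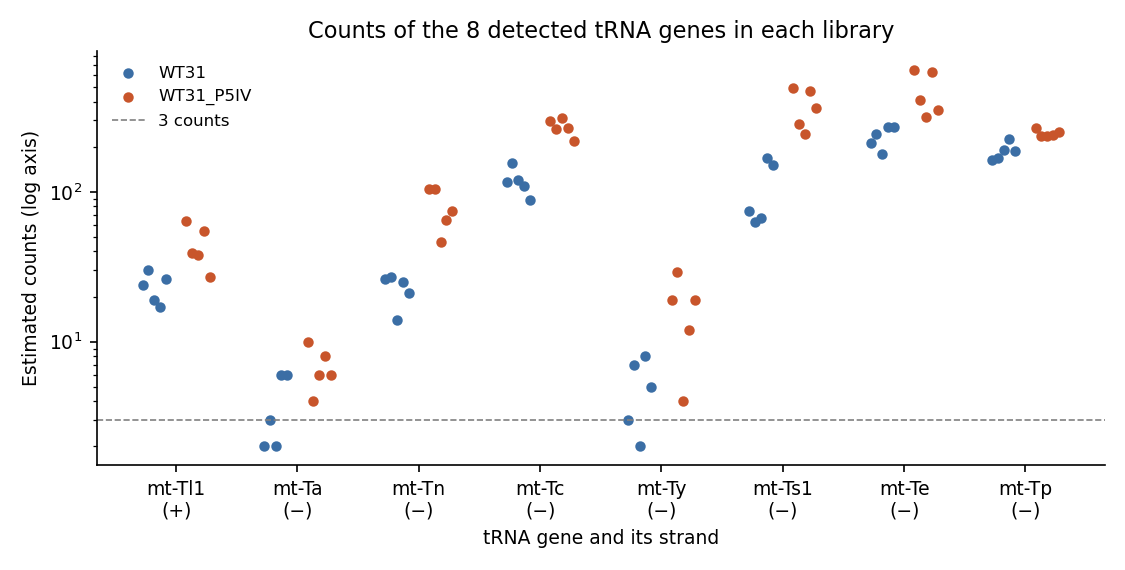
Estimated counts (log axis) of the 8 detected tRNA genes in each library, with the strand of each gene under its name and a dashed line at 3 counts. The points of the lines are apart for mt-Tn, mt-Tc, mt-Ts1, mt-Te and mt-Tp and overlap for mt-Tl1, mt-Ta and mt-Ty.

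The remaining detected tRNAs did not pass the filter. mt-Ty held 3, 7, 2, 8 and 5 counts in WT31 and 19, 29, 4, 12 and 19 in WT31_P5IV, and mt-Ta held 2, 3, 2, 6 and 6 and 10, 4, 6, 8 and 6. Both overlapped between the lines. Further, mt-Tk held 0 to 5 counts in WT31 and 1 to 7 in WT31_P5IV, and mt-Tq, on the minus strand, 0 and 0 to 4.

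Several classes of short RNA of the nucleus were higher in WT31_P5IV as well. Summed over each annotated class, the TPM ratio of WT31_P5IV to WT31 was 1.75 for small nucleolar RNA, 1.55 for small nuclear RNA and 1.80 for small Cajal body RNA, as compared to 2.03 for mitochondrial tRNA, 1.03 for lincRNA and 0.970 for annotated nuclear rRNA, whose ranges overlapped (470 to 998 TPM in WT31 and 547 to 711 in WT31_P5IV). For miRNA, another short class, the ratio was 1.34 and the ranges overlapped as well (3862 to 6553 TPM in WT31 and 5880 to 7091 in WT31_P5IV). Of 9 listed unpolyadenylated RNAs 4 passed the filter and were called higher (median log2 fold change 1.28), where 34.6% of all genes tested were called higher. Rn7s1 and Rn7s2 among these 4 hold a single set of counts. Rpph1, the RNA of nuclear RNase P, was at 2.67 (SE 0.17; edgeR adjusted p = 3.66e-09), and Rn7s1, a signal recognition particle RNA, was at 1.28 (SE 0.29; edgeR adjusted p = 0.00118). Of 4 listed RNAs that stay in the nucleus, 3 were tested and called higher, with Malat1 at 0.91 (SE 0.12; edgeR adjusted p = 7.66e-06) Kcnq1ot1 at 1.06 (SE 0.14; edgeR adjusted p = 9.41e-06) and Neat1 at 0.36 (SE 0.06; edgeR adjusted p = 8.72e-05). With limma on log2(TPM + 1) 2 of the 3 were called higher, and the call of Neat1 was lost. The part in the tRNA values of whatever these RNA classes share was not tested.

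The nuclear genome holds copies of mitochondrial sequence, and reads from both look alike. A tract on chromosome 1 (chr1:24611535-24616197, GRCm38) carries 7 annotated pseudogenes of which 97.2% to 100% of the 31-base words also occur in mitochondrial transcripts. These and other copies covered 98.1% of the words of mt-Nd3, 98.9% of mt-Nd4l, 99.5% of mt-Atp6, 99.9% of mt-Co3 and 100% of mt-Co2, and 63.9% and 62.8% of those of mt-Co1 and mt-Nd4. For mt-Nd2, mt-Nd5, mt-Nd6, mt-Cytb and mt-Atp8 the share was 6.6% to 16.8%, for mt-Rnr2 2.7%, and mt-Nd1 and mt-Rnr1 shared none. The 6 mRNAs with under 20% of their words in nuclear genes had a median log2 fold change of 0.81, as compared to 0.83 over all 13.

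Most of the counts in copies fell to Gm29216. It is a copy of the last 492 bases of mt-Co1 (bases 1054 to 1545) and held 32310, 37633, 34768, 26538 and 31075 counts in WT31 and 44763, 55748, 52432, 46087 and 36456 in WT31_P5IV. On these unscaled counts the lines overlapped, since WT31 replicate 2 exceeded WT31_P5IV replicate 5. However, WT31 replicate 2 also had the larger library total (25750639 against 24431000 counts) and TMM factor (1.03 against 0.99). On the TMM-scaled CPM it was therefore not above WT31_P5IV replicate 5. The log2 fold change of Gm29216, on that scale, was 0.64 (SE 0.10). Gm29216 differs from mt-Co1 at 6 bases, all within its first 13, and the 479 bases after those are identical. The start of the copy (chr1:24616138-24616197, minus strand) and the copied part of mt-Co1 (chrM:6381-6440, plus strand) follow with those 6 bases in capitals.
Gm29216: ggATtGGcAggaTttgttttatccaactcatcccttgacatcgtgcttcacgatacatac
mt-Co1: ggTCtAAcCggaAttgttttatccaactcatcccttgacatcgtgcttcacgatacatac

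Gm28439, a copy of part of mt-Nd4, held 2792 counts in WT31 replicate 2 and 956 in WT31_P5IV replicate 3, and at most 3 in each of the other libraries. All 7 pseudogenes together held counts equal to 1.38% to 2.19% of those of the mitochondrial genes. When these counts were added to the mitochondrial gene each copy resembles, a choice made after seeing the data, the 13 log2 fold changes ran from 0.75 to 1.16, as without the addition. The ends of this range, mt-Nd3 and mt-Cytb, could hardly move. The copy of mt-Nd3 held at most 19 counts, and none of the 7 is a copy of mt-Cytb. mt-Co1, which Gm29216 copies, moved from 0.98 to 0.96. The difference between complex I and the other mRNAs moved from -0.18 to -0.17.

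The nuclear subunits of the same complexes showed smaller differences. Of 36 tested for complex I, 15 rose and 6 fell (median log2 fold change 0.08), of 9 for complex III 6 rose and 3 fell (0.17), and of 18 for complex V 11 rose and 4 fell (0.16), while the mitochondrial medians were 0.79, 1.16 and 0.97. Of 11 tested for complex IV, 10 rose and 0 fell (median 0.34, as compared to 0.96 for the mitochondrial genes), led by Cox6a1 (log2 fold change 0.73, SE 0.09; edgeR adjusted p = 4.02e-06) and Cox4i1 (0.61, SE 0.06; edgeR adjusted p = 5.25e-07). The same 2 background shares apply here, 34.6% of all genes higher and 33.9% lower, with a median over all genes of 0.01. With limma on log2(TPM + 1), where 21.4% of all genes were higher and 43.7% lower, the numbers higher and lower were 9 and 18 for complex I, 2 and 3 for complex III and 6 and 2 for complex IV. For complex V they were 0 and 6 there (2 and 7 at an unadjusted p under 0.05), so the predominance of increases in complexes I, III and V was lost on that scale. With library totals alone 7 of complex V rose. On counts no nuclear subunit reached the mitochondrial genes of its own complex, as the highest was Ndufb8 for complex I (0.62, SE 0.07), Uqcr11 for complex III (0.45, SE 0.08), Cox6a1 for complex IV and Atp5g2 for complex V (0.56, SE 0.19, a call lost on TPM at 0.43). Of the 4 genes of complex II, which has no mitochondrial subunit, Sdhb rose (0.25, SE 0.05) and Sdhc (-0.28, SE 0.04) and Sdha (-0.20, SE 0.04) fell. The call of Sdhb was lost on TPM (0.07).

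**Figure D5:**
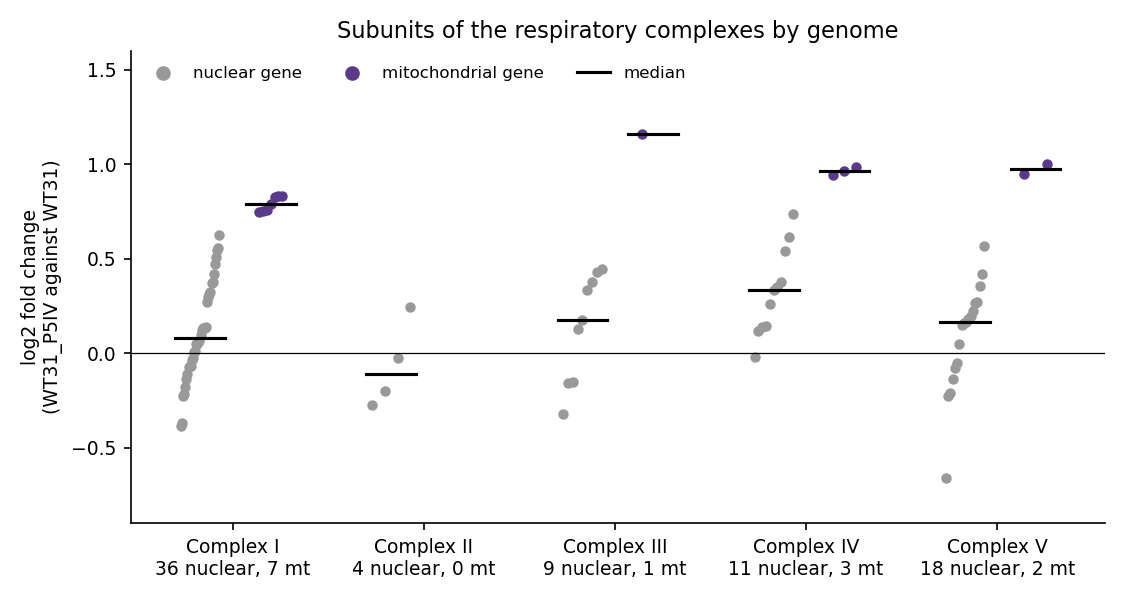
Log2 fold change of WT31_P5IV against WT31 for each tested nuclear (grey) and mitochondrial (purple) subunit gene of the respiratory complexes, with a line at each median. The mitochondrial genes of complexes I, III, IV and V lie above the highest nuclear subunit of their complex, which reaches 0.62, 0.45, 0.73 and 0.56.

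The nuclear genes that express the mitochondrial genome went in both directions. Of 207 listed genes 205 were tested, 82 rose and 54 fell, with a median log2 fold change of 0.05. The shares over all genes tested, beside which these counts and those of the lists that follow stand, were 34.6% higher and 33.9% lower. The counts shifted to 30 and 87 with limma on log2(TPM + 1), on which the median of all genes is -0.12 and 21.4% of all genes were higher and 43.7% lower. Counts given below as on TPM are from that test. Of 9 transcription genes 1 rose and 2 fell, and without WT31_P5IV replicate 3 the number that rose was 2, without WT31_P5IV replicate 5 the number that fell was 1. The number that fell was also 1 with upper-quartile scaling, and 4 with library totals alone and on TPM. Polrmt, the mitochondrial RNA polymerase, rose (34.2 ± 1.30 to 60.4 ± 3.60 CPM; log2 fold change 0.82, SE 0.05; edgeR adjusted p = 1.13e-09). In contrast, Tfb2m, which opens the promoter for it, fell (-0.42, SE 0.03; edgeR adjusted p = 6.16e-08), as did Tfam, which packs the genome and starts transcription (-0.12, SE 0.04; edgeR adjusted p = 0.0223). The call of Tfam was lost in 5 of the other settings, among them those without WT31_P5IV replicate 1 or 5 (-0.11 each). The elongation factor Tefm stood at -0.20 (SE 0.10; edgeR adjusted p = 0.0776), and was called lower in 6 of the other settings, among them those without WT31 replicate 2 (-0.26) or WT31_P5IV replicate 1 (-0.25).

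Of 12 replication genes 5 rose and 3 fell, the highest being Polg, the catalytic subunit of the mitochondrial DNA polymerase (0.80, SE 0.04; edgeR adjusted p = 9.48e-11). The number that rose was 3 with library totals alone or with the filter of at least 1 count in any library, and 2 on TPM. The 4 tested genes that cut the tRNAs out of the precursor moved in both directions. Hsd17b10 (0.51, SE 0.05) and Elac2, the 3′ end nuclease (0.18, SE 0.05), rose, whereas Trmt10c (-0.67, SE 0.05; edgeR adjusted p = 1.31e-08) and 1110008L16Rik (-0.25, SE 0.06) fell. The calls of Elac2 (0.0033) and 1110008L16Rik (-0.15) were lost on TPM. Hsd17b10 and Trmt10c are partners within mitochondrial RNase P, which cuts the 5′ ends.

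Of 21 genes of mRNA stability and polyadenylation 11 rose and 5 fell, as compared to 4 and 6 on TPM, and 6 rose with library totals alone or with the filter of at least 1 count in any library. Lrpprc, which binds and stabilizes the mitochondrial mRNAs, fell slightly (-0.17, SE 0.05; edgeR adjusted p = 0.00579), and its partner Slirp stood at -0.0018 (SE 0.07; edgeR adjusted p = 0.984). The largest changes in this list were Rpusd3 (0.63, SE 0.13) and Fastkd2 (0.40, SE 0.06) upward and Ptcd2 (-0.24, SE 0.04) and Grsf1 (-0.19, SE 0.03) downward. Of 17 genes of rRNA modification and ribosome assembly 10 rose and 1 fell, namely Gtpbp10 (-0.67, SE 0.05), and Mettl17 (0.58, SE 0.05) and Mpv17l2 (0.43, SE 0.07) led the rise. On TPM 5 of these rose and 4 fell, and with library totals alone 3 fell, or 2 with the filter of at least 1 count in any library. The 82 mitochondrial ribosomal proteins divided into 29 higher and 20 lower (median 0.03), as compared to 9 and 42 on TPM and 32 lower with library totals alone.

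For the tRNAs, 12 of 22 genes that charge them rose, with Vars2 (0.71, SE 0.05) and Aars2 (0.52, SE 0.06) first, and 7 fell, with Rars2 (-0.38, SE 0.05) and Nars2 (-0.35, SE 0.05) lowest. On TPM 5 rose and 9 fell. Of 17 tRNA modification genes 4 rose and 5 fell, and both largest changes were downward, in Trmt61b (-1.32, SE 0.13; edgeR adjusted p = 5.08e-07), a tRNA adenine methyltransferase, and Nsun3 (-0.95, SE 0.07; edgeR adjusted p = 1.75e-08), which methylates a cytosine of the methionine tRNA. On TPM 2 rose and 7 fell. Of 13 translation factors 3 rose and 7 fell, and without WT31 replicate 4 or WT31_P5IV replicate 3 the number that rose was 1. It was also 1 with library totals alone or with the filter of at least 1 count in any library, and on TPM 0 rose and 9 fell, at an adjusted or an unadjusted p under 0.05.

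The mRNAs of markers of mitochondrial content, which itself was not measured, went in both directions. Of 18 such mRNAs, 7 rose and 8 fell (median -0.09), where 34.6% of all genes tested were higher and 33.9% lower. The 18 ran from Hspd1 (-0.46, SE 0.05) and Cs (-0.40, SE 0.03; edgeR adjusted p = 6.83e-08) to Phb (0.44, SE 0.05) and Phb2 (0.44, SE 0.05). Cs encodes the citrate synthase commonly used as a measure of mitochondrial mass. On TPM 4 rose and 10 fell. Of 10 tested regulators of mitochondrial biogenesis 5 rose and 3 fell, with Esrra (0.36, SE 0.06) and Ppargc1b (0.35, SE 0.10) highest and Gabpa (-0.85, SE 0.06) and Myc (-0.38, SE 0.05) lowest. On TPM 1 rose and 4 fell, and the call of Ppargc1b was lost (0.10). Ppargc1a, a main coactivator of the program, was at 0.18 (SE 0.07; edgeR adjusted p = 0.0409), a call lost in 12 of the other settings, 7 of them without 1 library (0.12 to 0.19 without WT31 replicate 1, 4 or 5 or WT31_P5IV replicate 1, 2, 3 or 5).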

How the data were processed

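Total RNA of cultured WT31 and WT31_P5IV cells was sequenced, 5 libraries per line. According to the study's methods and the labels, the authors trimmed reads with Trim Galore 0.6.4 and used kallisto on GRCm38.p6; the annotation release is not given in the sources used here. The deposited tables hold estimated counts and TPM per gene and library, both made by the authors with kallisto. Of the 55385 identifiers, 55144 matched GENCODE M21, the source of symbols and transcript sequences. The members and gene lists were chosen with earlier results of these data known. Estimated counts were rounded and fitted with edgeR 4.0.16 (R 4.3.3; TMM, filterByExpr, quasi-likelihood test, Benjamini-Hochberg over 13620 genes, threshold 0.05), all 10 libraries, no covariate. For the mitochondrial genes the fold change and SE are given without a test. Words of 31 bases were compared between mitochondrial and all other transcripts with Python 3.11.15. Named nuclear genes are the 2 largest increases and decreases among the called genes of each list, plus Polrmt, Tfam, Tfb2m, Tefm, Lrpprc, Slirp and Ppargc1a. Not all of those are described. Alternatives were other scalings, filters, limma 3.58.1 (voom and log2(TPM + 0.1 or 1)), DESeq2 1.42.0, a replicate block and leaving out each library. The script was tested on simulated data. The deposited sample and series descriptions differ on the sequencing instrument. WT31 replicate numbers are those of the sample titles, and another deposited label numbers 3 of these libraries differently, so WT31 replicates 3 to 5 are certain only as to title. Library totals of 24255389 to 25750639 counts limit the precision of genes with low counts, most tRNA genes among them.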

Additional observations from a re-analysis of the deposited data

Results flagged for a closer look

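In 11 of 182 sets of 5 libraries checked, a single library lay far from the other 4 (gap over range above Dixon's 95% value), and chance gives about 1 in 20. Among the mitochondrial genes these were mt-Rnr1 in WT31_P5IV replicate 2 (217.2 CPM, the others 183.9 to 191.6), mt-Rnr2 in WT31 replicate 2 (1064 CPM, the others 842.3 to 879.2), and mt-Atp8 (389.1 CPM, the others 461.6 to 483.9) and mt-Nd6 (1309 CPM, the others 1447 to 1468) in WT31 replicate 1. WT31 replicate 1 was also the lowest of its line for most mRNAs, and leaving it out gave a median log2 fold change of 0.79 over the 13 mRNAs.

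Among the nuclear genes the libraries that stood apart were WT31 replicate 5 for Polrmt (36.43 CPM) and WT31 replicate 1 for Rn7s1 (1.214 CPM). In WT31_P5IV they were replicate 3 for Rpusd3 (4.62 CPM), Mrpl23 (8.637 CPM) and Atp5g2 (144.7 CPM), replicate 4 for Slirp (32.6 CPM) and replicate 1 for Gtpbp3 (18.27 CPM). The cause was not tested.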

How the results depend on the processing

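The median log2 fold change of the 13 mitochondrial mRNAs, 0.83, ran from 0.76 to 0.86 under the other scalings and filters of counts, DESeq2 and limma voom, and from 0.79 to 0.89 when each library in turn was left out. It was 0.65 with limma on TPM at either pseudocount, 0.1 or 1. On these 2 scales the median of all genes was -0.14 and -0.12, so that the mitochondrial median lay 0.79 and 0.76 above it, as compared to 0.82 on counts. The difference in share was 5.29 percentage points of counts (5.04 to 5.58 without 1 library) and 9.68 of TPM. The difference between complex I and the other mRNAs (-0.18) and between rRNAs and mRNAs (-0.62) kept its direction in all settings run. mt-Rnr1 ranged from -0.22 to -0.01.

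Nuclear genes of mitochondrial expression numbered 82 higher and 54 lower, as compared to 30 and 87 with limma on either TPM scale, where 32.9% and 32.8% of all called genes were higher, as compared to 50.5% on counts. The call of Gfm2 (log2 fold change 0.16) turned to -0.01995 and -0.01869 there, and was lost in 5 other settings (0.09 to 0.14), with library totals alone, with the filter of at least 1 count in any library and without WT31 replicate 4 or WT31_P5IV replicate 2 or 3. The cause was not tested beyond that shift. Of 67 nuclear genes picked by the naming rule, 12 lost their call in at least 1 setting, among them, with limma on log2(TPM + 1), Mrpl23 (0.81 to 0.58), Atp5e (0.42 to 0.22), Gtpbp3 (0.39 to 0.12) and Mtif3 (0.35 to 0.09). Samples that share a replicate number correlated between -0.096 and 0.258 in their residuals, so the numbers, which are in doubt for WT31 replicates 3 to 5, were not taken to pair the lines. With a replicate block the mRNA median was 0.83 and the nuclear counts were 82 and 53, with 2 transcription genes higher instead of 1. Depth limits the tRNA genes, most of which stood at or under 3 counts, and genes of low count in general.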
